A study of Mus musculus with 12 samples.

Results

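Acid-base transport in the kidney was followed through 10 genes: Foxi1, Slc4a1, Slc26a4, Slc4a4, Car2, Car4, Atp6v1b1, Atp6v1g3, Atp6v0a4 and Atp6v0d2. They were taken by gene symbol from a deposited expression table of 52636 genes, and all 10 were found in it, each on 1 row. The 4 groups of kidney libraries, 3 libraries each, came from male wild-type C57BL/6 mice aged 8 weeks. Control mice received corn oil by gavage and saline. The PCN group received pregnenolone carbonitrile at 40 mg/kg each day by gavage, a synthetic steroid and a ligand of PXR (pregnane X receptor) in rodents. The cisplatin group received corn oil and 1 intraperitoneal injection of the tubule-damaging platinum compound cisplatin at 20 mg/kg. The cisplatin+PCN group received both drugs. Oil or PCN was given on 4 days before the injection and on 3 days after it, and kidneys were taken 4 days after cisplatin. The treatment description places the cisplatin group among both the PCN-pretreated and the oil-treated animals, so the groups used here are those in the library titles. The study used 6 to 8 animals a group, but nothing says that each library is a different animal, and the p-values measure the spread among these libraries, which may be in part technical.

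Intercalated cells of the connecting tubule and collecting duct set the final acid content of urine. In type A cells a multi-subunit proton pump, the V-ATPase, moves protons into the lumen across the apical membrane, while the anion exchanger AE1, encoded by Slc4a1, returns bicarbonate to the blood. Type B cells instead secrete bicarbonate through pendrin, encoded by Slc26a4. The transcription factor Foxi1 is required for both cell types and for expression of several of these genes. Upstream, the proximal tubule recovers most filtered bicarbonate through the sodium-bicarbonate cotransporter NBCe1, encoded by Slc4a4, together with the cytosolic carbonic anhydrase Car2 and the membrane-anchored Car4. Inherited loss of ATP6V1B1, ATP6V0A4, SLC4A1 or FOXI1 causes distal renal tubular acidosis in people.

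Forkhead factors such as Foxi1 bind DNA with the core letters TGTTTAC or TGTTTGC, and the 250 bases upstream of the annotated start were searched for both on both strands (reverse complements GTAAACA and GCAAACA). RefSeq promoters on GRCm38.p6 were matched for 7 of the 10 genes, in 8 records, since Slc4a4 has 2 starts. Of all 32851 promoters of that length, 3.17% held TGTTTAC, 4.30% held TGTTTGC and 7.29% held either. These 4 promoters are shown because the transcripts of these intercalated cell genes moved in different directions after cisplatin: Atp6v1b1 and Slc26a4 fell, and Atp6v0a4 and Atp6v1g3 rose. They lie at chr6:83742767-83743016 on the plus strand, chr12:31559985-31560234 on the minus strand, chr6:38124587-38124836 on the minus strand and chr1:138273488-138273737 on the plus strand. Each is written 5′ to 3′ along the gene's strand, with a forkhead core in capitals.
Atp6v1b1: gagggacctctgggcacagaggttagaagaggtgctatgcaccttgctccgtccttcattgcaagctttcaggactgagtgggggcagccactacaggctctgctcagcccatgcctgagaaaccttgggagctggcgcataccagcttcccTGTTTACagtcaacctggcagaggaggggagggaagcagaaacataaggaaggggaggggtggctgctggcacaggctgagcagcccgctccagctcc
Slc26a4: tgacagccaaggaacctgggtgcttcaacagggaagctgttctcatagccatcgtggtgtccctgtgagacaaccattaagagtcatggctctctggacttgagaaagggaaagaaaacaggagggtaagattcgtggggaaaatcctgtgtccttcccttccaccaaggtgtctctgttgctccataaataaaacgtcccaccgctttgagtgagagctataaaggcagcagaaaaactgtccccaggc
Atp6v0a4: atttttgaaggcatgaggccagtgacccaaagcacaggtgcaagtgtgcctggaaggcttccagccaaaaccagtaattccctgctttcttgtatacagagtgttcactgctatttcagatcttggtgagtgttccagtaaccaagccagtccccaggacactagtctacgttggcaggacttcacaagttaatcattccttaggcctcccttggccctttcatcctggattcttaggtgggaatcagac
Atp6v1g3: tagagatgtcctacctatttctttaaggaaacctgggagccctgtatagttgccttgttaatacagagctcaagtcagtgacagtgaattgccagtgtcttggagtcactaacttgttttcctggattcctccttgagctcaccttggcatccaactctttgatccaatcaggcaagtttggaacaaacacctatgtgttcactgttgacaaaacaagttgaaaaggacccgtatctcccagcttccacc
Of the 8 records only that of Atp6v1b1 held a forkhead core, TGTTTAC on the plus strand, 98 bases before the start. A match is a string of letters and not a shown binding site, and its absence from the other windows says nothing about binding elsewhere.

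The deposited unit is FPKM, fragments per kilobase of gene scaled to library size, which allows levels to be compared between genes. The reads assigned to genes numbered 18914607 to 26530485 per library, recovered from the deposited values, and an FPKM of 1 stood for 18.7 to 27.2 reads per kilobase. The 10 genes rested on between 95 reads (Slc4a1, lowest library) and 40264 reads (Slc4a4, highest library). Changes were tested with limma on log2(FPKM + 1) over 13540 genes that reached an FPKM of 1 in at least 3 of 12 libraries, with Benjamini-Hochberg adjustment over all of them, and a change was called at an adjusted p under 0.05. All 10 genes passed that minimum. Kidney markers were present: Umod, a gene of the thick ascending limb, was at 1109 to 1387 FPKM in control libraries and at 683 to 1075 FPKM after cisplatin. Cisplatin+PCN replicate 1 stood apart from its group, with Slc4a4 at 148 FPKM against 89.0 and 94.3 and the macrophage marker Cd68 at 5.001 against 15.6 and 8.17. Results of the 10 genes without it are given in the comparisons that use it.

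In control kidney the genes spanned a range from Car2 to Foxi1. Car2 had the highest level, 178 ± 12.9 FPKM (SD, n = 3), followed by Slc4a4 at 108 ± 2.96 FPKM, Car4 at 66.5 ± 7.35 FPKM and Atp6v0a4 at 56.9 ± 2.46 FPKM, with no overlap between neighbours. Atp6v1b1 at 27.8 ± 2.08 FPKM and Atp6v1g3 at 27.3 ± 0.693 FPKM overlapped each other. Slc26a4 came next at 21.5 ± 0.840 FPKM. Atp6v0d2 at 11.96 ± 0.434 FPKM and Slc4a1 at 11.1 ± 0.814 FPKM also overlapped, and Foxi1 was lowest at 8.21 ± 1.66 FPKM. The plot of levels by library shows all 12 values of each gene.

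**Figure D1:**
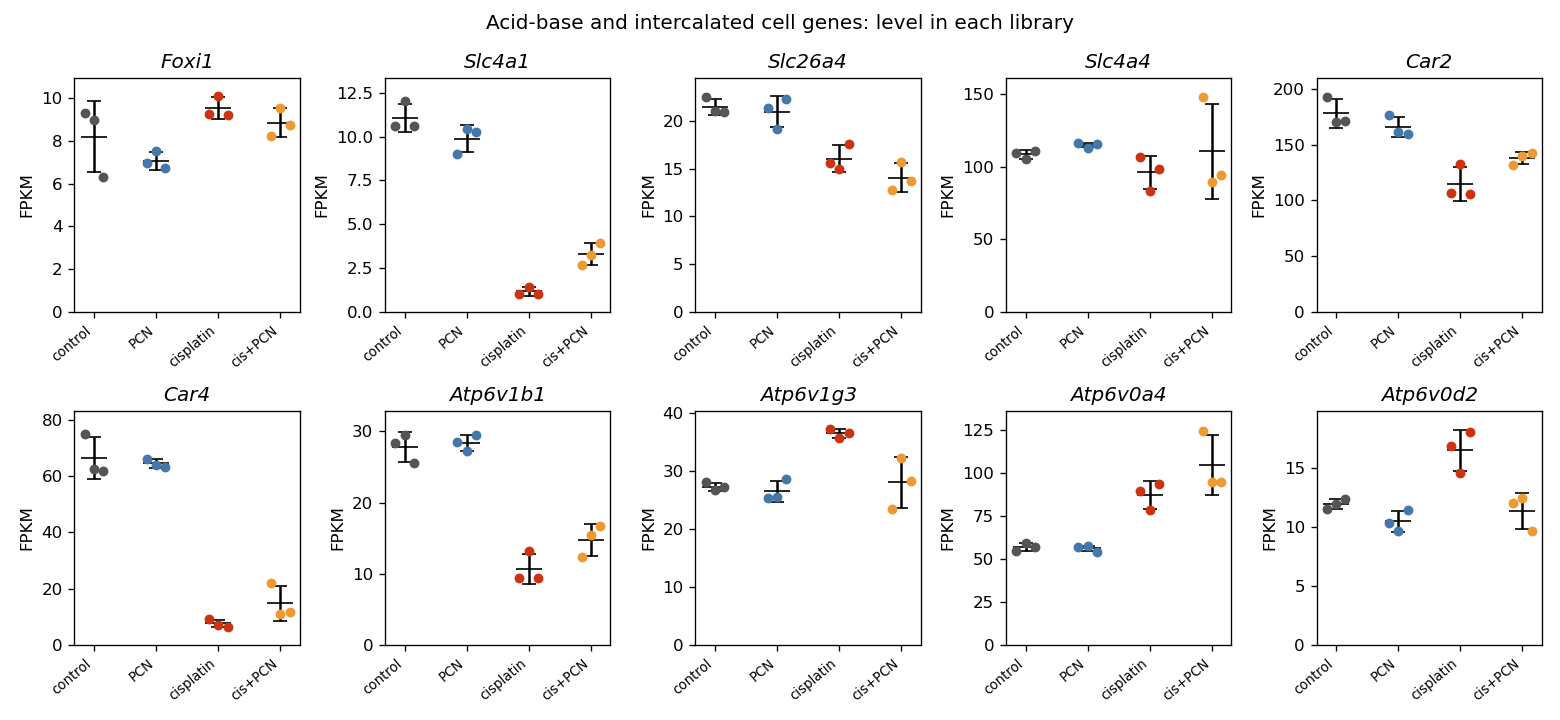
FPKM of each of the 10 genes in each library (points), by group, with the group mean (wide line) and SD (bar), n = 3; every axis starts at 0. Slc4a1 and Car4 fall from 11.1 and 66.5 FPKM in control to 1.16 and 7.58 FPKM after cisplatin, while the Foxi1 libraries of the 2 groups overlap.

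Cisplatin split the genes. Compared with control, 5 of the 10 fell (Slc4a1, Slc26a4, Atp6v1b1, Car2 and Car4), 3 rose (Atp6v0a4, Atp6v0d2 and Atp6v1g3), and Foxi1 and Slc4a4 did not pass the test. Calls were common after cisplatin: of all genes tested 63.9% were called, 32.0% as higher and 31.9% as lower, so a count of 8 of 10 is to be read against that background. The median change of the 10 genes was -0.29 on the log2 scale, against 0.01 over all tested genes. In whole kidney RNA, fewer cells of a type and less RNA per cell cannot be told apart. All 8 calls held in each of 23 other ways of processing the data.

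Foxi1, the factor that specifies intercalated cells, was at 9.32, 9.004 and 6.30 FPKM in control and at 9.28, 10.1 and 9.23 FPKM after cisplatin. The groups overlapped, and its log2 change of 0.21 (SE 0.12) did not pass (limma adjusted p = 0.138). Its mean was 116% of control.

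Slc4a1, the basolateral exchanger of type A cells, read 10.6, 12.02 and 10.6 FPKM in control and 1.01, 1.43 and 1.04 FPKM after cisplatin. No cisplatin library came near a control library, and the mean was 10.5% of control. Its log2 change was -2.49 (SE 0.11, limma adjusted p = 5.22e-08). Slc4a1 also encodes band 3 of red blood cells, and blood transcripts moved the same way. The summed FPKM of 8 erythroid genes was 318 to 1187 in control libraries and 0.640 to 7.12 after cisplatin, and all 5 of those tested fell, with Hbb-bs changing by -7.44, Hba-a1 by -6.40, Hbb-bt by -5.59 and Hba-a2 by -4.66 on the log2 scale. In control libraries Hbb-bs was at 663, 183 and 253 FPKM. The remaining tested gene, Alas2, changed by -2.01 (limma adjusted p = 0.000110). The red cell membrane genes Ermap and Epb42 were too low to be tested. They were near 0 in all 12 libraries, controls included, at most 0.0624 and 0.231 FPKM. The part of red cell transcripts in the Slc4a1 result was not tested.

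Slc26a4, the apical chloride-bicarbonate exchanger of type B cells, read 22.5, 21.1 and 20.9 FPKM in control and 15.6, 14.9 and 17.6 FPKM after cisplatin. The groups did not overlap, and the log2 change was -0.40 (SE 0.09, limma adjusted p = 0.00240). Slc4a4, the proximal cotransporter, read 109, 105 and 111 FPKM in control and 106, 83.4 and 98.4 FPKM after cisplatin. These overlapped at a log2 change of -0.18 (SE 0.16, limma adjusted p = 0.345). Other proximal tubule genes gave lower values in the same libraries: all 8 on a proximal list fell, among them the inositol oxygenase gene Miox at -5.29, the phosphate transporter gene Slc34a1 at -4.88, the lactate transporter gene Slc5a12 at -3.49 and the endocytic receptor gene Lrp2 at -3.02 on the log2 scale. Their summed FPKM was 2907 to 3120.3 in control and 167 to 259 after cisplatin, while Slc4a4 kept 88.5% of its control mean. These 8 do not stand for all proximal genes. Pck1, a gene of proximal cells on another list, was at 125% of its control mean and was not called. In 4 of 23 alternatives it was called higher (adjusted p down to 0.00377).

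The carbonic anhydrases fell to different extents. Car4, the enzyme on the cell surface, read 75.0, 62.7 and 61.8 FPKM in control and 9.14, 7.14 and 6.46 FPKM after cisplatin. That left 11.4% of the control mean, a log2 change of -2.98 (SE 0.21, limma adjusted p = 8.24e-07). Car2, the cytosolic enzyme of intercalated cells, proximal tubule and red blood cells, read 193, 170.3 and 171 FPKM in control and 107, 132 and 105 FPKM after cisplatin. It kept 64.5% of control, at a log2 change of -0.63 (SE 0.10, limma adjusted p = 0.000167), with no overlap between groups. The red cell isoform Car1 was at most 0.0816 FPKM in any library. Whether the fall of erythroid transcripts bears on Car2 was not tested. Of 14 further family members 9 were tested, of which 6 fell and 2 rose. The membrane-bound Car14 changed by -2.63, the muscle isoform Car3 by -2.59, the basolateral Car12 by -1.87 and the cytosolic Car13 by 1.31 on the log2 scale. Control libraries of Car3 were widely spread, at 30.5 ± 20.1 FPKM (SD, n = 3).

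The 4 pump subunits moved apart. Atp6v1b1, a B subunit of the cytosolic V1 sector, which hydrolyses ATP, read 28.3, 29.6 and 25.5 FPKM in control and 9.45, 13.1 and 9.32 FPKM after cisplatin. It kept 38.2% of control, a log2 change of -1.32 (SE 0.13, limma adjusted p = 8.90e-06). Atp6v1g3, a stalk subunit of the same sector, read 28.02, 26.7 and 27.1 FPKM in control and 37.3, 35.7 and 36.5 FPKM after cisplatin. It rose by 0.41 (SE 0.10, limma adjusted p = 0.00372).

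Both membrane-sector subunits rose as well. Atp6v0a4, an a subunit of the sector that conducts protons, read 54.4, 59.3 and 57.1 FPKM in control and 89.4, 78.3 and 93.7 FPKM after cisplatin, a log2 change of 0.60 (SE 0.11, limma adjusted p = 0.000554). Atp6v0d2, the d2 subunit that couples the sectors, read 11.5, 11.99 and 12.4 FPKM in control and 16.8, 14.6 and 18.1 FPKM after cisplatin, a log2 change of 0.43 (SE 0.10, limma adjusted p = 0.00377). In each of these 3 rising genes all cisplatin libraries exceeded all control libraries, but these are genes already called. How many of all tested genes separate in this way was not counted. The exons of Atp6v0a4 share 62 bases with Tmem213 on the opposite strand and 259 of 4973 bases with D630045J12Rik on the same strand, and strand-specificity was not given in the sources used here. Tmem213, itself an intercalated cell gene, rose by 0.48 (limma adjusted p = 0.00509).

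Atp6v0d2 is also expressed by macrophages and osteoclasts, and some of their markers rose too. Of 8 tested among 11 macrophage-lineage genes 4 rose and 2 fell. Spp1, which injured tubules also express, changed by 4.91, Cd68 by 2.57, Ctsk by 1.36 and the receptor gene Csf1r by -1.08 on the log2 scale. The list's summed FPKM went from 538 to 563 in control to 12434 to 16493 after cisplatin, nearly all of it Spp1, at 12340 to 16379. The remaining rise was that of C1qa at 0.53 (limma adjusted p = 0.0476), and the remaining fall that of Acp5 at -0.36 (limma adjusted p = 0.00357). The macrophage marker Adgre1 was at 1.34 to 1.49 FPKM in control and 0.679 to 1.15 FPKM after cisplatin. Its change of -0.33 did not pass (limma adjusted p = 0.0845). The part of macrophage transcripts in the Atp6v0d2 result was not tested.

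Shares of 3 intercalated cell isoforms among their paralogs differed between control and cisplatin beyond the spread of the libraries, and 2 shares overlapped. Among the B subunits, B1 made up 25.5%, 26.6% and 24.3% of the summed B1 and B2 (Atp6v1b2) FPKM in control and 10.3%, 14.2% and 11.2% after cisplatin. B2 itself was not called, at -0.05 (limma adjusted p = 0.499). The d2 share of d1 and d2 (Atp6v0d1) went the other way, from 17.5% ± 0.462 to 23.7% ± 1.23 (SD, n = 3), and the G3 share of G1 and G3 (Atp6v1g1) from 13.2% ± 0.577 to 19.9% ± 0.222 (SD, n = 3). For neither share did the control and cisplatin libraries overlap. Atp6v1g1 itself was called lower, at -0.29 (limma adjusted p = 0.00669), so the G3 share reflects both genes. Atp6v0d1 was not called, at -0.08 (limma adjusted p = 0.338). The C2 share (Atp6v1c2) of C1 and C2 (Atp6v1c1) did overlap, at 16.6% ± 2.02 and 15.03% ± 2.57 (SD, n = 3).

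The a4 share of the a1, a2 and a4 sum stayed within the spread, at 73.1% ± 1.92 in control and 74.9% ± 1.65 after cisplatin (SD, n = 3). Atp6v0a1, the a1 paralog, rose by 1.16 in the same libraries (SE 0.08, limma adjusted p = 8.39e-07), and Atp6v0a2, the a2 paralog, fell by 0.30 on the log2 scale. The longest stretch of identical bases between the reading frames of the paralogs was 26 bases for B1 and B2, 18 for a4 and a1, 16 for a4 and a2, 17 for d2 and d1 and 11 for G3 and G1.

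**Figure D2:**
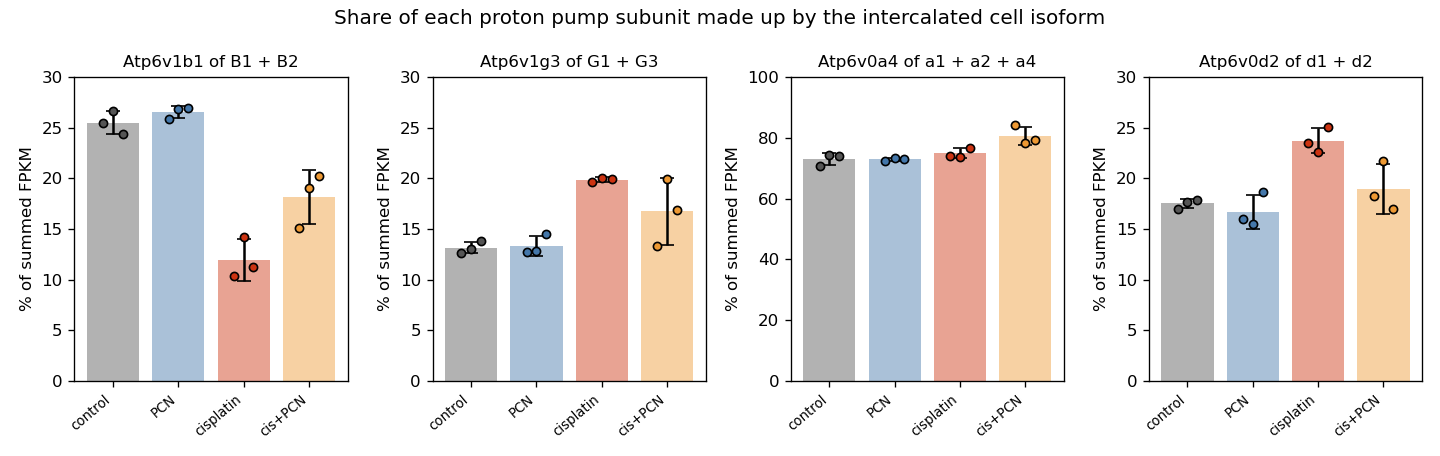
Share of summed FPKM (percent, linear axis from 0) made up by Atp6v1b1, Atp6v1g3, Atp6v0a4 and Atp6v0d2 within each subunit's paralogs, by group. Bars are means, points are libraries and error bars are SD, n = 3; B1 drops from 25.5% in control to 11.9% after cisplatin while G3 and d2 are higher.

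Beyond the intercalated cell isoforms, 17 ubiquitous or shared V-ATPase genes were all tested, of which 9 fell and 2 rose after cisplatin, with a median of -0.24. After Atp6v0a1 the changes of greatest size were in the membrane subunit gene Atp6v0e2 at -0.87, the catalytic A subunit gene Atp6v1a at -0.64 and the stalk subunit gene Atp6v1c1 at -0.58. Of 17 other intercalated cell genes 14 were tested, of which 8 fell and 1, Tmem213, rose, with a median of -0.33. Rhcg, an ammonia channel gene, read 49.8, 45.01 and 43.4 FPKM in control and 9.01, 13.4 and 11.3 FPKM after cisplatin, a log2 change of -1.96. Insrr, an alkali-sensing receptor, changed by -1.92, the 2-oxoglutarate receptor gene Oxgr1 by -1.39 and the potassium-chloride cotransporter gene Slc12a7 by -0.85. The scale understates changes of low genes. Insrr, at 4.85 FPKM in control, kept 11.2% of its control mean, and Rhcg kept 24.4%. The type B exchanger gene Slc4a9 was not called, at -0.08.

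Other acid-base genes moved in both directions. Of 20 on the list 17 were tested, of which 8 fell and 5 rose, with a median of -0.23. Slc38a3, the glutamine transporter that feeds ammonia production, read 10.3, 11.9 and 9.41 FPKM in control and 42.0, 45.1 and 44.1 FPKM after cisplatin, a log2 change of 1.96. Glud1, glutamate dehydrogenase, rose by 1.09; it was picked from the list after its values were seen, as was Pck1, which was not called at 0.30 (limma adjusted p = 0.146). The sulfate-bicarbonate exchanger gene Slc26a1 changed by -2.997, the gastric-type proton pump gene Atp4a by -1.81 and the chloride channel subunit gene Bsnd by -1.78. Principal cells, the neighbours of intercalated cells, gave 5 falls and no rise among 8 tested of 10 genes. Hsd11b2 was at -1.42, Scnn1g at -0.81, Aqp3 at -0.76 and Aqp4 at -0.62. The Aqp4 call was lost in 9 of 23 alternatives (limma adjusted p up to 0.160). Aqp2 at -0.10 (limma adjusted p = 0.623), Scnn1b at 0.18 and Fxyd4 at -0.26 were not called. The list's summed FPKM overlapped, at 472 to 581 in control and 374 to 500 after cisplatin.

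**Figure D3:**
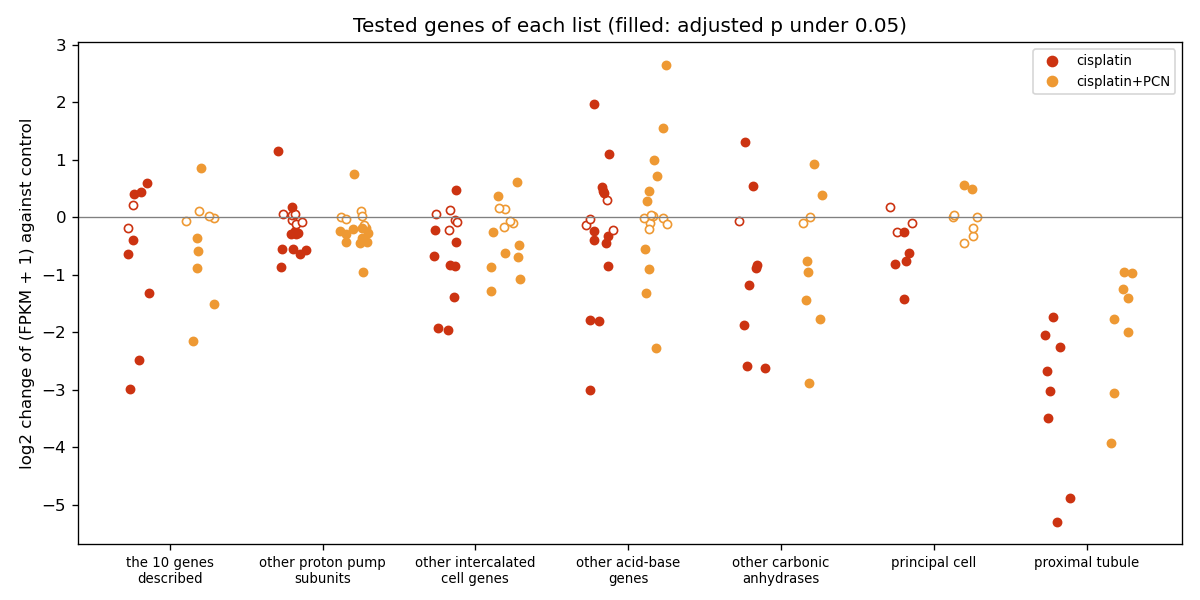
Log2 change of (FPKM + 1) against control for every tested gene of 7 lists, after cisplatin (red) and cisplatin+PCN (orange); filled points passed an adjusted p of 0.05 and the grey line marks no change. The 10 genes lie between -2.98 and 0.60 after cisplatin, and all 8 proximal tubule genes lie below -1.7.

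With PCN added to cisplatin, 5 of the 10 genes differed from cisplatin alone. Slc4a1, Atp6v1b1 and Car4, which cisplatin lowered, were higher, and Atp6v0d2 and Atp6v1g3, which cisplatin raised, were lower. Of all tested genes 15.6% were called, 7.97% as higher and 7.61% as lower. This comparison shares the cisplatin libraries with the comparison of cisplatin and control, so opposite signs in the 2 are not independent. The median over the 10 genes was 0.21, against 0.00 over all genes tested. The plot of changes sets the comparisons side by side.

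Slc4a1 read 2.67, 3.26 and 3.92 FPKM with both drugs, above every cisplatin library and below every control library. The log2 change from cisplatin was 0.98 (SE 0.11, limma adjusted p = 0.00219). The summed erythroid FPKM in these libraries was 0.360 to 0.827, and its part in this difference was not tested. Car4 read 21.98, 10.9 and 11.5 FPKM, all above the cisplatin libraries, a log2 change of 0.83 (SE 0.21, limma adjusted p = 0.0291). Without cisplatin+PCN replicate 1 the Car4 change was 0.52 (adjusted p = 0.0357), and without cisplatin replicate 3 it was not called (adjusted p = 0.104). The Slc4a1 change without cisplatin+PCN replicate 1 was 1.09.

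The pump subunits differed in both directions. Atp6v1b1 read 12.3, 15.4 and 16.7 FPKM with both drugs and overlapped the cisplatin group, at a log2 change of 0.45 (SE 0.13, limma adjusted p = 0.0452). That call was lost in 16 of 23 alternatives, including leaving out any control or PCN library, cisplatin replicate 1 or 3, or cisplatin+PCN replicate 2 or 3 (limma adjusted p = 0.0581 to 0.156). Atp6v0d2 read 12.04, 12.5 and 9.64 FPKM, all below the cisplatin libraries, at -0.50 (SE 0.10, limma adjusted p = 0.0145), and it missed the threshold without cisplatin replicate 3 (adjusted p = 0.0546). Atp6v1g3 read 23.5, 32.2 and 28.3 FPKM, all below the cisplatin libraries, at -0.38 (SE 0.10, limma adjusted p = 0.0281). It was no longer called without cisplatin replicate 1 or 3 or cisplatin+PCN replicate 1 or 3 (limma adjusted p = 0.0562 to 0.0824), and without cisplatin+PCN replicate 1 its change was -0.27. Without that library Atp6v1b1 was at 0.57 and Atp6v0d2 at -0.54, both still called.

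The other 5 genes were not called between these groups. Atp6v0a4 read 125, 94.9 and 94.5 FPKM with both drugs, above all cisplatin libraries, but its change of 0.25 (SE 0.11) did not pass (limma adjusted p = 0.128) and was 0.12 without cisplatin+PCN replicate 1. Car2 read 132, 139 and 142 FPKM, at 0.27 (SE 0.10, limma adjusted p = 0.0781), and passed when cisplatin replicate 2 was left out, at 0.37 (adjusted p = 0.0113). Without cisplatin+PCN replicate 1 it was at 0.30. Slc26a4 read 12.7, 15.7 and 13.7 FPKM, at -0.18 (limma adjusted p = 0.186), or -0.12 without cisplatin+PCN replicate 1. Slc4a4 read 148, 89.0 and 94.3 FPKM, at 0.17 (limma adjusted p = 0.489), which became -0.06 without cisplatin+PCN replicate 1. Foxi1 read 8.24, 9.57 and 8.77 FPKM, at -0.10 (limma adjusted p = 0.588), or -0.05 without that library.

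When only the 6 libraries of these groups were fitted, none of the 10 genes was called and 1 gene of all those tested was, with adjusted p of 0.111 for Slc4a1, 0.126 for Atp6v0d2, 0.155 for Atp6v1g3, 0.157 for Car4 and 0.184 for Atp6v1b1. The B1 share of the B subunits was 18.1% ± 2.67 (SD, n = 3) with both drugs, above all cisplatin libraries and below all control libraries. The d2 share was 19.0% ± 2.44, the G3 share 16.7% ± 3.32 and the a4 share 80.6% ± 3.12 (SD, n = 3 each). The a4 shares with both drugs, 84.2%, 78.4% and 79.3% in replicates 1 to 3, lay above every control and cisplatin library. A share also depends on its paralogs, and 2 of them were called lower than with cisplatin alone in the main test. Atp6v0a1 was at -0.40 (limma adjusted p = 0.0146), while Atp6v0a4 itself was not called. Atp6v1b2 was at -0.23 (limma adjusted p = 0.0366), a call lost in 12 of 23 alternatives.

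Those other intercalated cell, acid-base, carbonic anhydrase, principal cell and proximal tubule genes that passed were all higher with both drugs than with cisplatin alone. Over all tested genes 7.97% were called higher and 7.61% lower. The cisplatin libraries are shared with the comparison against control, so here too opposite signs in the 2 are not independent. Among other intercalated cell genes 3 of 14 rose and none fell, with Rhcg at 1.08 (limma adjusted p = 0.00174), Insrr at 0.64 and the aquaporin gene Aqp6 at 0.58. Among other acid-base genes 7 of 17 rose and none fell, among them Slc38a3 at 0.68, Glud1 at 0.45 and Pck1, the gluconeogenic enzyme of ammonia-producing proximal cells, at 0.70. Among principal cell genes 5 of 8 rose and none fell, with Hsd11b2 at 1.09, Scnn1g at 0.82, Aqp3 at 0.76 and Aqp2 at 0.58, and 6 of 8 proximal genes rose. The Aqp2 call was lost in 13 of 23 alternatives (adjusted p up to 0.205) and the Car12 call in 16 of 23 (up to 0.160). Those of Aqp6, Glud1 and Pck1 were each lost in 5 of 23 (up to 0.126, 0.154 and 0.148). Of the other carbonic anhydrases 2 of 9 rose, the mitochondrial Car5a at 0.89 and Car12 at 0.43, and of the shared V-ATPase genes 1 of 17 rose and 2 fell. Of 5 erythroid and 8 macrophage genes limma called 0 in either direction, with 0 and 3 at an unadjusted p under 0.05, and their changes ran from -0.72 to -0.02 and from -0.86 to 0.15.

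**Figure D4:**
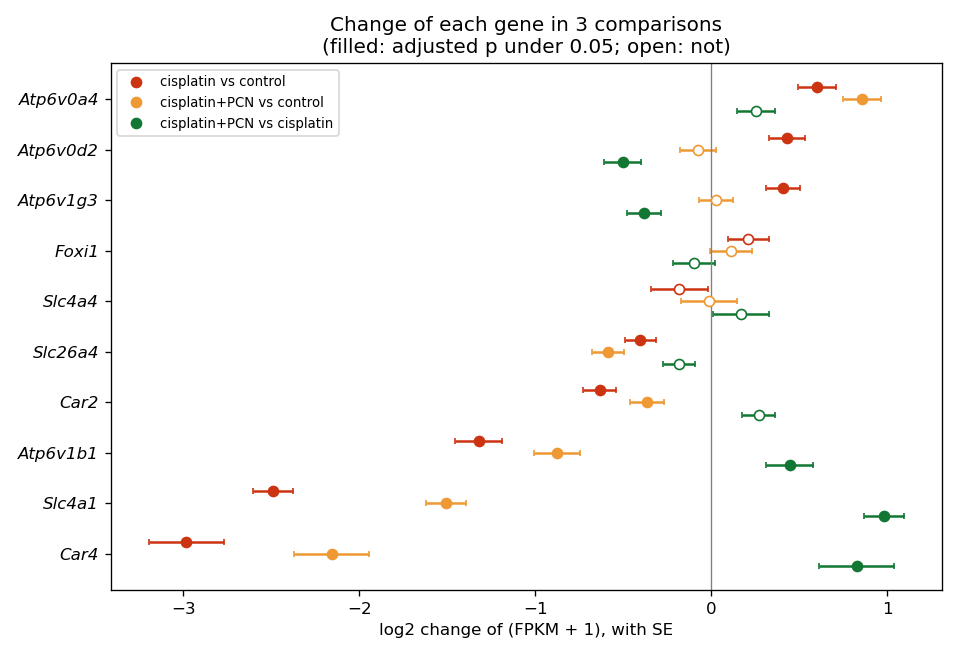
Log2 change of (FPKM + 1) with its standard error for the 10 genes in 3 comparisons, n = 3 libraries a group; filled points passed an adjusted p of 0.05. For Slc4a1, Car4 and Atp6v1b1 the change of cisplatin+PCN from control (-1.50, -2.16 and -0.88) is smaller in size than that of cisplatin (-2.49, -2.98 and -1.32).

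Against control, cisplatin+PCN left 5 of the 10 genes lower and 1 higher, on a background of 46.6% of genes called, 23.0% as higher and 23.6% as lower. Slc4a1 was at 29.6% of control, at -1.50 (SE 0.11, limma adjusted p = 2.99e-06), Car4 at 22.3%, at -2.16 (limma adjusted p = 1.86e-05), and Atp6v1b1 at 53.1%, at -0.88 (limma adjusted p = 0.000344). Slc26a4 was at 65.3% of control, at -0.58 (limma adjusted p = 0.000384), a size larger than the -0.40 with cisplatin alone, although the groups with cisplatin overlapped. Car2 was at 77.5%, at -0.36 (limma adjusted p = 0.00938). Atp6v0a4 was at 184% of control, at 0.86 (limma adjusted p = 9.43e-05), or 0.72 without cisplatin+PCN replicate 1. Atp6v0d2 at -0.07, Atp6v1g3 at 0.03, Slc4a4 at -0.01 and Foxi1 at 0.11 did not pass (limma adjusted p = 0.590, 0.848, 0.959 and 0.460). Without cisplatin+PCN replicate 1, Slc4a4 was at -0.24 (adjusted p = 0.0525), Atp6v1g3 at 0.14, Atp6v0d2 at -0.11 and Foxi1 at 0.16. Slc4a1 was then at -1.40, Car4 at -2.46, Atp6v1b1 at -0.76, Slc26a4 at -0.52 and Car2 at -0.33, all still called.

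The interaction asks whether the change with PCN differed between mice with and without cisplatin. It was called for 1 of the 10 genes, Slc4a1, at 1.13 (SE 0.16, limma adjusted p = 0.0266), and for 15 genes of all those tested, which is 0.111% (0.0739% higher and 0.0369% lower). Between the groups without cisplatin the Slc4a1 change with PCN was -0.15, and between those with cisplatin it was 0.98. The call was lost in 10 of 22 alternatives, namely without a filter on low values and without any control or PCN library, cisplatin replicate 1 or 3 or cisplatin+PCN replicate 3 (limma adjusted p = 0.0575 to 0.0909). Rhcg, from the list of other intercalated cell genes, was among the 15, at 1.07 (SE 0.17, limma adjusted p = 0.0457), and was lost in 14 of 22 alternatives. The interaction values of the other 9 genes ran from -0.34 (Atp6v1g3) to 0.86 (Car4, limma adjusted p = 0.170). Without cisplatin+PCN replicate 1 they ran from -0.37 (Atp6v0d2) to 0.56 (Car4), with Atp6v1g3 at -0.22. The Slc4a1 interaction was then 1.24 and still called (limma adjusted p = 0.0193).

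PCN alone gave 0 calls among the 10 genes, on a background of 0% of genes called, with 438 of 13540 genes at an unadjusted p under 0.05. By limma, 0 of the 10 genes had an unadjusted p under 0.05, and limma-voom on recovered reads called 0 of the 10 and 0 of all genes. The changes ran from -0.18 (Atp6v0d2) to 0.08 (Slc4a4) on the log2 scale. Slc4a1 read 8.999, 10.4 and 10.3 FPKM and Atp6v0d2 10.3, 9.69 and 11.4 FPKM with PCN, each below all control libraries. Slc4a4 at 116, 113 and 115 FPKM lay above them. For the other 7 genes the PCN and control libraries overlapped. The share of all tested genes whose PCN and control libraries separate was not counted. The unadjusted limma p was 0.215 for Slc4a1, 0.115 for Atp6v0d2 and 0.626 for Slc4a4. The B1, d2, G3 and a4 shares with PCN were 26.5%, 16.7%, 13.3% and 72.9%.

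Genes with the most similar pattern were sought among the tested genes other than these 10. The measure was the root mean square difference of log2(FPKM + 1) over the 12 libraries, each gene taken relative to its own control mean. For Slc4a1 the nearest were Hdhd3 at a difference of 0.158 and B3gat2 at 0.187. Hdhd3 read 9.77 FPKM on average in control, 0.952 after cisplatin and 3.15 with both drugs, close to the 11.1, 1.16 and 3.28 of Slc4a1. For Car4 they were Oxct1 at 0.180 and Slc26a1 at 0.207, and for Atp6v1b1 they were 3830406C13Rik at 0.102 and the noncoding Gm10451 at 0.114. For Slc26a4 they were Rnf208 and Pcyox1l, and for Car2 Hus1 and Taf6. Among the genes that rose after cisplatin, Atp6v0a4 was nearest to Kng2 and Inpp5a, Atp6v0d2 to Gm10232 and Eps8l2, and Atp6v1g3 to Slc25a37 and Rad9a. Slc4a4 lay nearest to Crat and Slc30a2, and Foxi1 to Rangap1 and Mmp23. The 10 genes were left out of the candidates, so none could be returned as nearest to another.

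The genes lie at these positions, as in the deposited table, which matched GENCODE M21 on GRCm38 for all 10. Slc4a1 is on chromosome 11 from 102348824 to 102366203, Foxi1 on chromosome 11 from 34204338 to 34208089, and Car4 on chromosome 11 from 84957786 to 84966044. Slc26a4 is on chromosome 12 from 31519827 to 31559969 and Slc4a4 on chromosome 5 from 88886818 to 89239653. Car2 is on chromosome 3 from 14886273 to 14900770. Atp6v1b1 is on chromosome 6 from 83742990 to 83758855 and Atp6v0a4 on the same chromosome from 38048483 to 38124586. Atp6v0d2 is on chromosome 4 from 19876841 to 19922605 and Atp6v1g3 on chromosome 1 from 138273738 to 138289462. Of the 10, only Atp6v0a4 overlapped other genes in the table.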

How the data were processed

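The authors deposited 1 table of FPKM values, fragments per kilobase of gene scaled to library size, for 52636 genes in 12 libraries. HISAT2 2.0.5, featureCounts 1.5.0-p3, DESeq2 1.16.1 and edgeR 3.18.1 are named without settings or role, per the submitters' processing notes, which also name build mm8. The identifiers instead match GENCODE M21 on GRCm38: 52403 of 52636 were found there, and 49909 of those (95.2%) at the same coordinates. Library preparation followed Illumina's standard protocol, per the labels' protocols, with no word on strand.

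FPKM times gene length gave whole reads in 100% of values (within 0.001 reads), but the read total behind the scaling was 0.952 to 1.11 times the reads assigned to genes. Replicates within a group differed by more than counting noise in all 12 pairs, so each library was counted on its own. Log2(FPKM + 1) was fitted with limma 3.58.1 (R 4.3.3), its prior variance following mean level, with 4 group means in 1 fit of 12 libraries; the scale understates changes of low genes. Calls were two-sided at a Benjamini-Hochberg adjusted p under 0.05 within each of 5 comparisons. Fitted by limma-voom instead, the recovered reads gave 8504 calls for cisplatin and 2265 for cisplatin+PCN over cisplatin alone, where log2 FPKM gave 8649 and 2110. Depth per gene is given as recovered reads, and no interval for counting error was computed.

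The 10 genes and all lists were chosen with earlier results of these data known. All 10 genes are named, with the ubiquitous paralogs of their subunits, up to 4 genes of each other list with the largest called change after cisplatin, and the 2 most similar genes of each. The lists were other V-ATPase, intercalated cell, acid-base, carbonic anhydrase, principal cell, proximal tubule, erythroid and macrophage genes, and some of their members are not reported here by name. Others named are list members picked after their values were seen. Proteins are not analysed here, and the promoters of Slc4a1, Atp6v0d2 and Car2 are not used here.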

Additional observations from a re-analysis of the deposited data

Results flagged for a closer look

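The change of Slc4a1 with PCN differed between mice with and without cisplatin, with an interaction of 1.13 on the log2 scale (SE 0.16, limma adjusted p = 0.0266). Slc4a1 was higher in all 3 libraries with both drugs than in all 3 with cisplatin alone, and lower in all 3 PCN libraries than in all 3 controls. The change with PCN alone, -0.15, was not called (limma unadjusted p = 0.215). These are the same libraries that gave the interaction, and the share of all genes that separate in this way was not counted. The call was lost in 10 of 22 alternatives, among them leaving out any 1 control or PCN library (limma adjusted p = 0.0575 to 0.0909).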

How the results depend on the processing

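Each of 1140 values of the 10 genes under an alternative was set beside its main value: 1086 stayed on the same side of the threshold, 42 lost a call and 12 gained one, and 21 uncalled values changed sign. The alternatives were pseudocounts of 0.1 and 0.5, no filter or a mean FPKM of at least 5, a median of ratios, quantile or top-50 rescaling, only the groups compared, array weights (whose estimation stopped before convergence), a replicate block, limma-voom and leaving out each library. For cisplatin+PCN against cisplatin, 5 of the 10 genes were called in the main test, 2 with no filter, 3 after quantile normalization and 0 with only the groups compared, where fewer samples entered the fit; leaving out 1 library gave 1 to 6, the 1 without cisplatin replicate 3, and 3 without cisplatin replicate 1 or cisplatin+PCN replicate 3. Voom called 4 here, array weights 7. The interaction, called for 1, was called for 0 with no filter, 5 with array weights and 0 to 2 without 1 library, the 2 without cisplatin replicate 2. The cause was not tested for the others. Cisplatin against control stayed at 8 and PCN at 0 throughout, and cisplatin+PCN against control, at 6, ran from 5 (voom, Car2 lost at adjusted p = 0.0722) to 8 (array weights).

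Over all genes, cisplatin+PCN against cisplatin gave 2110 calls, 1008 with no filter, 1 with only the groups compared, 6862 with array weights and 580 to 3390 without 1 cisplatin or cisplatin+PCN library. The interaction gave 15, 30 at a mean FPKM of at least 5, 68 with voom, 4315 with array weights, 1066 without cisplatin replicate 2, 493 without cisplatin+PCN replicate 2 and 9 without cisplatin+PCN replicate 3. A mean FPKM of at least 5, which tests fewer genes, gave 5197 calls for cisplatin and 4000 for cisplatin+PCN against control, against 8649 and 6308, and no filter gave 2 for PCN against 0. Between the groups with cisplatin, array weights also called Car2 and Slc26a4 (adjusted p = 0.000641 and 0.0250), and voom and the rescaling without the 50 highest genes called Atp6v0a4 (adjusted p = 0.0440 and 0.0419). The replicate block changed 1 call, that of Atp6v1b1 (adjusted p = 0.0529), leaving 4 for cisplatin+PCN against cisplatin. The numbers were not taken as pairing the libraries, since they are not said to do so. The correlations do not decide it. Of 18 same-number pairs, 4 had a correlation over 0.1 (range -0.28 to 0.37, against -0.40 to 0.33 for pairs with other numbers). However, 8 of 12 libraries correlated best with a library of their own number. Depth limits Slc4a1 after cisplatin most, at 95 reads in the lowest library.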
